A study of Solanum lycopersicum with 8 samples.

Results

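The Aft allele was followed in an atv background by setting fruit peel of the Aft/Aft atv/atv double mutant against fruit peel of the atv (atroviolacea) mutant on the Affymetrix Tomato Genome Array. These are 4 of the 8 arrays of the series, 2 biological replicates of each genotype, chosen by their titles. The double mutant carries both alleles in the homozygous state, and the labels describe its peel as strongly pigmented with anthocyanins. The atv mutant (accession LA0797) was labelled as having no significant anthocyanin, as was the wild type, cultivar Ailsa Craig (accession LA2838A). The Aft (Anthocyanin fruit) mutant (accession LA1996) was labelled as carrying small amounts of anthocyanin in spots. All 4 genotypes were untreated plants from a heated greenhouse in winter, and all fruits were mature green. Both groups compared therefore carry atv, and they differ by label in Aft. No cultivar is named for the mutant lines, so the Aft locus and the rest of each line's genome cannot be told apart in this comparison.

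Anthocyanins are flavonoid pigments made in the cytosol of epidermal cells and stored in the vacuole. Chalcone synthase (CHS) makes the first flavonoid, and dihydroflavonol reductase (DFR) opens the branch that leads to anthocyanins. A complex of MYB, bHLH and WD40 proteins switches on the late genes of this pathway. Tomato fruits normally hold no anthocyanin in the peel. Aft is a dominant allele brought in from the wild relative Solanum chilense, at a locus with MYB activators of the pathway. The recessive atv allele came from Solanum cheesmaniae and affects a small MYB protein that represses the pathway.

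Of 10038 probe sets that are not controls, 9493 passed the filter on low values (log2 intensity of 4 or more on at least 2 arrays). With limma's moderated test and an adjusted p under 0.05, 4178 probe sets were called between double mutant and atv mutant peel, which is 44% of those tested. Of these, 2347 (24.7% of all tested) were higher in the double mutant and 1831 (19.3%) were lower. The median difference over all probe sets was 0.103 on the log2 scale, and the values given for groups of genes below stand against that background. The 2 double mutant arrays lay wholly above or wholly below the 2 atv mutant arrays at 6882 probe sets, 72.5% of those tested, so separation of the 4 arrays is common here. Differences of 4-fold or more made up 236 of the higher calls and 383 of the lower ones. The direction split depended on scaling. The higher calls were 56.2% of all calls after quantile normalization and 31.0% (698 of 2252) with the values as deposited, where the median difference was -0.126. Without the second double mutant array 2552 probe sets were called. Of the 754 genes with a symbol, at 1 probe set each, 197 were higher, 187 lower and 50.9% called in all.

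Arrays of the atv mutant were the least like the rest. They correlated with each other at 0.978 over the probe sets tested, but with the double mutant arrays only at 0.885 to 0.902, with the Aft mutant arrays at 0.888 to 0.901 and with the wild type arrays at 0.895 to 0.91. The double mutant arrays correlated at 0.955 to 0.974 with the Aft mutant arrays and at 0.939 to 0.955 with the wild type arrays. Median deposited intensities were 644 and 514.5 for the double mutant, against 746.7 and 640.3 for the atv mutant. The excess of 3′ over 5′ signal in the endogenous control genes, a sign of RNA integrity, was 1.19 and 1.29 (log2) in double mutant peel, against 1.29 and 1.22 in atv mutant peel. No value of the comparison can be had without the atv mutant arrays, so levels in Aft mutant and wild type peel are given beside many of the main results. In peel as a whole, fewer cells of a type and less RNA per cell cannot be told apart.

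**Figure D1:**
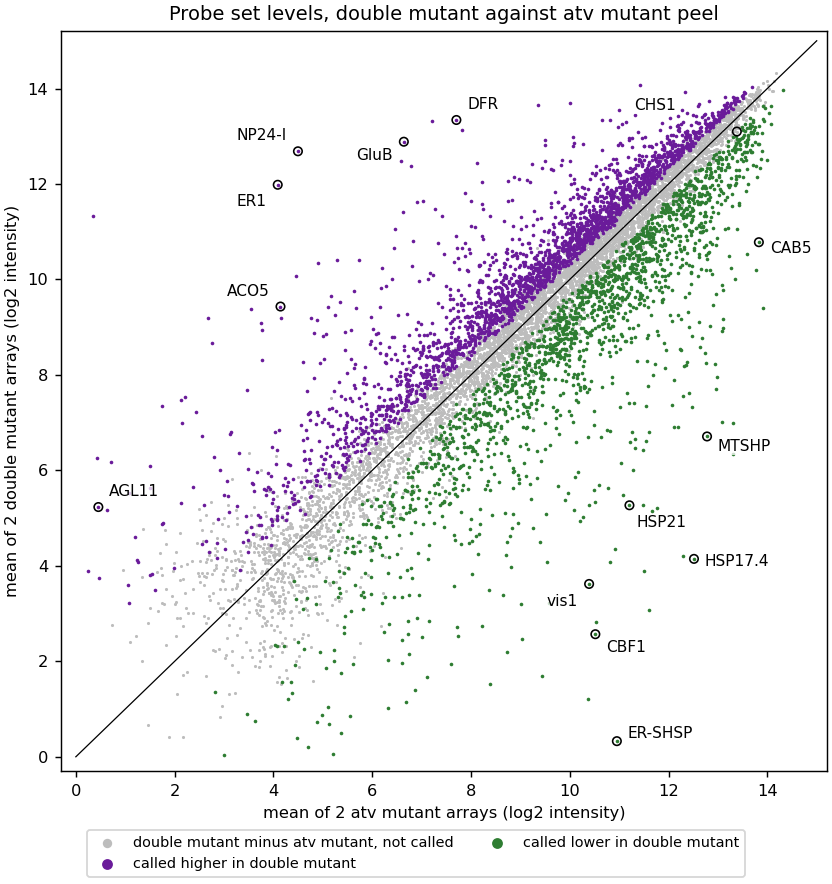
Mean log2 intensity of each probe set tested in double mutant peel (vertical axis, 2 arrays) against its mean in atv mutant peel (horizontal axis, 2 arrays), with the line of equal levels. Points in purple were called higher and points in green lower in the double mutant; circled genes are named in the text. DFR, NP24-I, ER1 and GluB lie far above the line, the small heat shock protein genes and CBF1 far below it, and CHS1 close to it.

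DFR was the one gene of the anthocyanin branch with a named probe set on the array, and it separated the genotypes clearly. Its log2 intensity was 13.30 and 13.39 in double mutant peel, against 7.49 and 7.92 in atv mutant peel. It was 10.57 and 10.77 in Aft mutant peel, against 0.71 and 3.33 in wild type peel (levels and signed differences here are on the log2 scale throughout, and a level of 0 is the floor). The order of the 4 genotypes, from high to low, was therefore double mutant, Aft mutant, atv mutant and wild type, with no overlap between neighbours. DFR was 49.7-fold higher in the double mutant than in the atv mutant, a difference of 5.64 ± 0.79 (SE, adjusted p = 0.0029) on the log2 scale. Fitted on the 4 arrays of the comparison alone, the difference stayed at 5.64, with an SE of 0.19.

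Chalcone synthase, at the entry of the pathway, did not show this step. CHS1 was 13.06 and 13.14 in double mutant peel, against 13.35 and 13.41 in atv mutant peel. Its difference was -0.28 ± 0.10 (SE, adjusted p = 0.073), with a 95% interval -0.54 to -0.027, so a rise was outside the interval. CHS2 was 13.63 and 13.62 in double mutant peel, against 14.10 and 14.04 in atv mutant peel, a fall of 1.36-fold (adjusted p = 0.018), which missed the threshold with the values as deposited (adjusted p = 0.096). These readings lie close to 14.32, the highest log2 intensity on any array. In fruit that lacks atv, CHS1 was 10.62 and 10.69 in Aft mutant peel, against 7.59 and 7.78 in wild type peel. The interaction for CHS1, (double minus atv) minus (Aft minus wild type), was -3.26 ± 0.15 (SE, adjusted p = 0.00023). CHS2 was 13.28 and 13.45 in Aft mutant peel, against 13.95 and 13.82 in wild type peel, a difference of -0.52 (adjusted p = 0.048), and its interaction of 0.076 ± 0.15 (SE, adjusted p = 0.75) was not called. Leaving out 1 array ended the call of CHS2 (either double mutant array or the first atv mutant array, adjusted p = 0.0563 to 0.0908).

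The called share in the phenylpropanoid branches beside the flavonoids was 33.3%, against 50.9% of all genes with a symbol. Of 6 genes tested there, 2 fell and none rose. Both code for tyramine hydroxycinnamoyltransferases (THT), which make wall-bound amides. THT7-8 was 3.55 and 2.90 in double mutant peel, against 6.58 and 5.79 in atv mutant peel, and THT7-1 was 8.48 and 8.32 in double mutant peel, against 10.44 and 9.99 in atv mutant peel. The falls were at least 4.56-fold and 3.51-fold (adjusted p = 0.0092 and 0.0016). The third THT gene, THT1-3, had a difference of 0.90 ± 0.42 (SE, adjusted p = 0.13). Hydroxycinnamoyl quinate transferase (hqt), which makes chlorogenic acid, had -0.0029 ± 0.13 (SE, adjusted p = 0.99), and cinnamoyl-CoA reductase CCR1 of the lignin branch had -0.44 ± 0.15 (SE, adjusted p = 0.056). The ELI3-type alcohol dehydrogenase gene, LOC543602, had -1.60 ± 0.61 (SE, adjusted p = 0.081). Another probe set of LOC543602 had the opposite sign, at 1.33, and was not called either. With 1 array left out, calls were lost for THT7-8 (the second double mutant array, adjusted p = 0.0515).

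Among MYB, bHLH and WD40 regulators, 6 of 8 listed genes passed the filter, 1 was called higher and 1 lower. This called share was 33.3%, against 50.9% of all genes with a symbol. THM18, listed under the symbol MYB, was 6.84 and 6.60 in double mutant peel, against 4.36 and 0.74 in atv mutant peel. Its level was 6.50 and 6.51 in Aft mutant peel, against 5.34 and 5.64 in wild type peel. Both double mutant arrays lay above all 4 arrays without Aft, and the 2 atv mutant arrays differed widely from each other. Taken from intensities floored at 16, because the atv mean was under log2 4, THM18 was at least 5.82-fold higher (unfloored adjusted p = 0.025). Its call was lost with the values as deposited, in the 4-array fit (adjusted p = 0.056 and 0.09) and without either double mutant array. THM6 fell by 1.45-fold (adjusted p = 0.023). THM16, THM27, LeMYBI and MYC2, a bHLH factor of jasmonate signalling, had differences of -0.96, -0.082, 0.15 and -0.17, none of them called. ANT1, a MYB activator of anthocyanin synthesis, stayed at or below a log2 intensity of 2.48 on every array and was not tested, nor was THM1. Calls that did not hold with 1 array left out were those of THM18 (either double mutant array, adjusted p = 0.0836 to 0.0903) and THM6 (either double mutant array or the first atv mutant array, adjusted p = 0.0755 to 0.111). THM6 was not called with the values as deposited.

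**Figure D2:**
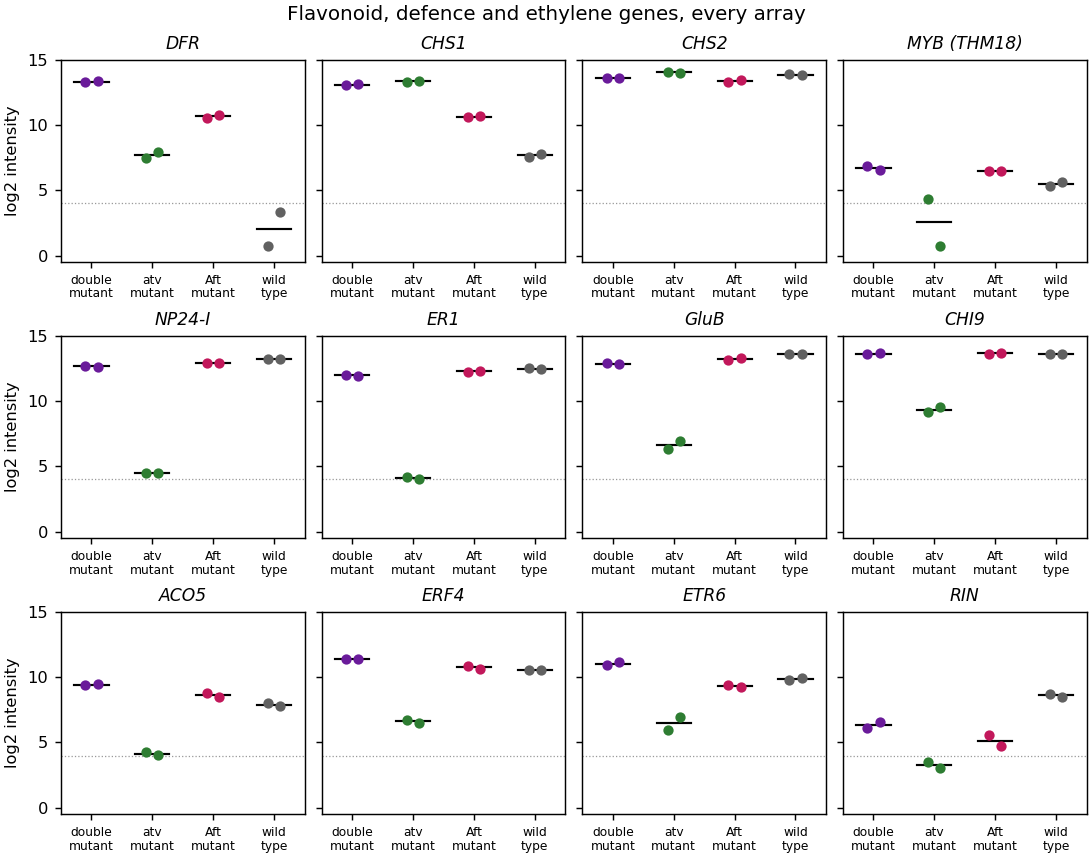
Log2 intensity on each of the 8 arrays (points) with the mean of each genotype (bars) for 12 flavonoid, defence and ethylene genes, with the genotypes in columns from double mutant to wild type and a dotted line at log2 4. In DFR the Aft mutant arrays lie between double mutant and atv mutant, whereas in NP24-I, ER1, GluB and CHI9 the atv mutant arrays lie below all other 6.

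Defence proteins gave the largest rises among named genes. The defence and wound list had 50 genes tested, of which 17 were higher, 13 lower and 20 not called, with a median difference of 0.30. Its called share was 60%, against 50.9% of all genes with a symbol. With the values as deposited the counts turned round, to 10 higher and 12 lower. NP24-I, an osmotin-like protein of the PR-5 family, was 12.70 and 12.67 in double mutant peel, against 4.48 and 4.52 in atv mutant peel. It was 12.96 and 12.95 in Aft mutant peel, against 13.25 and 13.24 in wild type peel. The atv mutant arrays alone were low, and the double mutant exceeded them 292-fold (8.19 ± 0.083 SE, adjusted p = 1.4e-06).

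The ethylene-responsive proteinase inhibitor gene ER1 had the same arrangement. Its log2 intensity was 12.04 and 11.92 in double mutant peel, against 4.17 and 4.01 in atv mutant peel. In the other genotypes it was 12.28 and 12.29 in Aft mutant peel, against 12.55 and 12.46 in wild type peel. The rise over the atv mutant was 238-fold (7.90 ± 0.10 SE, adjusted p = 3.2e-06). GluB, a beta-1,3-glucanase that cleaves fungal wall glucan, was 12.94 and 12.83 in double mutant peel, against 6.36 and 6.92 in atv mutant peel, which is 75.8-fold higher. CHI9, a basic chitinase, was 13.62 and 13.70 in double mutant peel, against 9.18 and 9.55 in atv mutant peel, or 19.6-fold higher. In both genes the atv mutant arrays were again the low ones, with GluB at 13.18 and 13.35 in Aft mutant peel, against 13.64 and 13.61 in wild type peel, and CHI9 at 13.65 and 13.70 in Aft mutant peel, against 13.67 and 13.63 in wild type peel. The interaction was called for these 4 genes, at 8.48 ± 0.12 (SE, adjusted p = 8.7e-06) for NP24-I.

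Other hydrolases and defence regulators rose as well. The subtilisin-like protease gene sbt4a was 10.41 and 10.39 in double mutant peel, against 5.37 and 6.10 in atv mutant peel, a difference of 4.67 ± 0.24 (SE, adjusted p = 9.2e-05). It was also higher with Aft in the other background, at 11.27 and 11.17 in Aft mutant peel, against 7.44 and 7.33 in wild type peel, and its interaction of 0.83 ± 0.33 (SE, adjusted p = 0.13) was not called. The proteases sbt3, P69A and P69B rose by 3.37-fold, 2.54-fold and 2.09-fold. The peroxidase gene CEVI-1 was at least 2.26-fold higher, with an atv mean under log2 4. PTI4, an ERF-type factor that binds the Pto kinase, rose 6.45-fold, and NPR1, the salicylate co-activator, rose 1.65-fold. CHI17, a chitinase, rose 2.42-fold. One left-out array was enough to lose the call of NPR1 (the second double mutant array, adjusted p = 0.0571) and P69B (either double mutant array, adjusted p = 0.0646 to 0.0702). NPR1 and P69B were not called with the values as deposited.

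Among the 13 falls in the defence list, the viroid-induced gene CEVI57 was 5.07 and 5.61 in double mutant peel, against 10.43 and 10.58 in atv mutant peel, a fall of 36-fold. It was also low in the Aft mutant, at 5.88 and 5.92 in Aft mutant peel, against 9.95 and 9.74 in wild type peel. The wound-inducible proteinase inhibitor I gene PIIF (LOC543954) had a difference of -2.73 ± 0.27 (SE, adjusted p = 0.00084), and WRKYIId-2 (LOC543855), a WRKY factor, -2.18 ± 0.098 (SE, adjusted p = 6.9e-05). Allene oxide cyclase AOC, allene oxide synthase AOS and oxophytodienoate reductase OPR3, which are enzymes of jasmonate synthesis, fell by 1.97-fold, 1.64-fold and 1.72-fold. The acidic chitinase gene CHI3 and the pathogenesis-related gene PR1b1 fell by 3.06-fold and 2.93-fold. The mitogen-activated kinase gene MPK3 had 3 probe sets, of which 1 was called (-0.34) and the other two were not (0.11 and 0.33). Leaving out 1 array ended the call of AOS (the first double mutant array or either atv mutant array or either Aft mutant array or either wild type array, adjusted p = 0.0547 to 0.169) and MPK3 (either double mutant array or the first atv mutant array or either Aft mutant array or either wild type array, adjusted p = 0.053 to 0.18). MPK3 was not called with the values as deposited.

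Ethylene controls ripening of tomato through a family of receptors, the kinase CTR1, the EIN2 protein and factors of the EIL and ERF families. Of 47 ripening and ethylene genes tested, 28 were higher in the double mutant, 8 lower and 11 not called, with a median difference of 0.56. That is a called share of 76.6%, against 50.9% of all genes with a symbol. On the deposited scale 19 were higher and 8 lower, and without the second double mutant array 20 and 7. By comparison, 2 of these genes were higher and 3 lower in Aft mutant than in wild type peel, and 27 of them had a called interaction. With 1 array left out, calls were lost for EIN2 (either double mutant array or either atv mutant array or either wild type array, adjusted p = 0.071 to 0.157). EIN2 was not called with the values as deposited.

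Receptors and signalling genes were mostly among the higher ones. ETR6, an ethylene receptor, was 10.96 and 11.15 in double mutant peel, against 5.97 and 6.94 in atv mutant peel. It was 9.42 and 9.25 in Aft mutant peel, against 9.81 and 9.98 in wild type peel. The atv mutant level was thus the lowest of the 4, and the double mutant was 24.2-fold above it (4.60 ± 0.31 SE, adjusted p = 0.00025). The receptors ETR5, ETR4, ETR3 (LOC544279) and ETR1 rose by 4.96-fold, 2.65-fold, 1.89-fold and 1.4-fold, and ETR2 had a difference of -0.044 and was not called. EIL1 to EIL4 all rose, by 1.83-fold, 2.26-fold, 1.82-fold and 2.69-fold. CTR1 and CTR4 rose by 2.34-fold and 2.37-fold, whereas CTR3 had 0.25 and was not called. Calls that did not hold with 1 array left out were those of ETR1 (either double mutant array or the second atv mutant array, adjusted p = 0.0776 to 0.117). ETR1 was not called with the values as deposited.

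The response factor ERF4 was 11.39 and 11.43 in double mutant peel, against 6.74 and 6.51 in atv mutant peel. In the genotypes without atv it was 10.88 and 10.67 in Aft mutant peel, against 10.59 and 10.58 in wild type peel. It rose 27.5-fold over the atv mutant (4.78 ± 0.12 SE, adjusted p = 2.4e-05). ERF2 and ERF1a (LOC606712) rose by 2.52-fold and 2.44-fold, while ERF3 had one probe set lower (-1.26) and another not called (-1.73). ERF factors bind the GCC box in ethylene-responsive promoters. One left-out array was enough to lose the call of ERF1a (the first double mutant array, adjusted p = 0.103). ERF1a was not called with the values as deposited.

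Enzymes of ethylene synthesis moved both ways. Of the ACC oxidases, which release ethylene in the last step, ACO5 was 9.38 and 9.48 in double mutant peel, against 4.25 and 4.04 in atv mutant peel. It was 8.81 and 8.49 in Aft mutant peel, against 8.01 and 7.80 in wild type peel, and rose 39.1-fold over the atv mutant. ACO6 was 8.55 and 8.52 in double mutant peel, against 12.40 and 12.06 in atv mutant peel, a fall of 12.9-fold, with its other probe sets at -4.25 and -4.62. ACO4 fell 4.11-fold, at 10.76 and 10.67 in double mutant peel and 12.70 and 12.81 in atv mutant peel. The ACC synthases, which set the rate of ethylene synthesis, were split as well. ACS4 had a difference of 1.16 ± 0.31 (SE, adjusted p = 0.028), ACS1A of -2.16 ± 0.20 (SE, adjusted p = 0.00066) and ACS3 of -2.38 ± 0.52 (SE, adjusted p = 0.015). ACS2, ACS6, ACS7 and ACS8 were not called, and ACS5 failed the filter. Leaving out 1 array ended the call of ACS3 (the second atv mutant array, adjusted p = 0.0593) and ACS4 (either double mutant array or the first atv mutant array or either wild type array, adjusted p = 0.0527 to 0.109).

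Ripening regulators outside the ethylene pathway also separated the genotypes. RIN, a MADS-box factor needed for ripening, was 6.13 and 6.59 in double mutant peel, against 3.54 and 3.06 in atv mutant peel. It was 5.58 and 4.71 in Aft mutant peel, against 8.74 and 8.52 in wild type peel. Double mutant peel therefore stood above atv mutant peel and below wild type peel, at least 5.14-fold above the atv mutant. AGL11, a MADS-box gene, was 5.55 and 4.91 in double mutant peel, against 0.91 and 0.0 in atv mutant peel, with 5.52 and 5.86 in Aft mutant peel, against 1.04 and 1.70 in wild type peel. It was at least 2.35-fold higher, and its 2 Aft-carrying genotypes both lay above the 2 without Aft. The MADS-box genes AG1 (an AGAMOUS homologue), MADS1, TAGL1 and TDR4 rose by 3.08-fold, 1.86-fold, 1.56-fold and 1.37-fold. NOR, a NAC factor of ripening, was 1.31 and 1.81 in double mutant peel, against 4.22 and 4.12 in atv mutant peel, a difference of -2.61 ± 0.82 SE, adjusted p = 0.046. With intensities floored at 16 its difference was -0.17 (adjusted p = 0.20), so the call was lost. The ripening-related genes E8 and 2A11 had -0.24 and 0.14 and were not called, and the ripening polygalacturonase gene PG2 stayed at or below a log2 intensity of 3.18 on every array. With 1 array left out, calls were lost for NOR (either double mutant array or either atv mutant array or either Aft mutant array, adjusted p = 0.0731 to 0.156), TAGL1 (the second double mutant array, adjusted p = 0.0692) and TDR4 (either double mutant array, adjusted p = 0.0721 to 0.0793). TAGL1 and TDR4 were not called with the values as deposited.

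**Figure D3:**
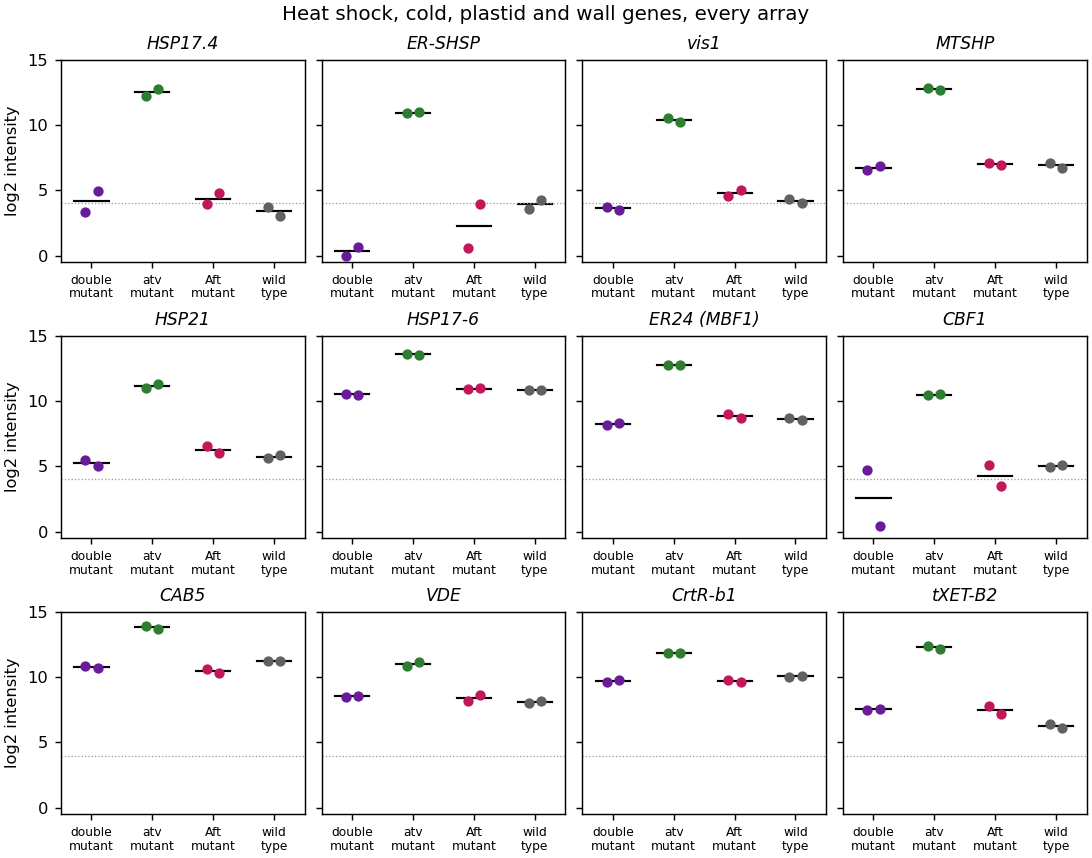
Log2 intensity on each of the 8 arrays (points) with the mean of each genotype (bars) for 12 genes called lower in the double mutant than in the atv mutant, with the genotypes in columns from double mutant to wild type. For the heat shock genes and CBF1 the atv mutant arrays lie above all other 6, which hold the double mutant, Aft mutant and wild type arrays.

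Genes for small heat shock proteins had the 2 largest falls among named genes, ER-SHSP and HSP17.4. These proteins are chaperones that hold denatured proteins in solution, and tomato has them in the cytosol, plastid, mitochondrion and endoplasmic reticulum. Of 11 heat shock genes tested 8 fell and none rose, with a median difference of -3.43. Their called share was 72.7%, against 50.9% of all genes with a symbol, and 7 fell with the values as deposited. None of the 11 was called for Aft mutant minus wild type, and 7 had a called interaction.

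All 4 cell compartments were among the falls. HSP17.4, for a cytosolic protein, was 3.33 and 4.96 in double mutant peel, against 12.24 and 12.79 in atv mutant peel, a difference of -8.37 ± 0.61 (SE, adjusted p = 0.00032). ER-SHSP, of the endoplasmic reticulum, was 0.0 and 0.66 in double mutant peel, against 10.92 and 10.99 in atv mutant peel, which is at least 124-fold lower. These levels in the other genotypes were 3.94 and 4.79 in Aft mutant peel, against 3.76 and 3.0 in wild type peel for HSP17.4, and 0.54 and 3.95 in Aft mutant peel, against 3.60 and 4.24 in wild type peel for ER-SHSP. The atv mutant was the high genotype in both. MTSHP, of mitochondria, was 6.56 and 6.86 in double mutant peel, against 12.86 and 12.70 in atv mutant peel, a fall of 67.1-fold. HSP21, of plastids, was 5.52 and 5.02 in double mutant peel, against 11.06 and 11.36 in atv mutant peel, a fall of 61.4-fold. vis1, a small heat shock protein gene tied to juice viscosity in fruit, was 3.71 and 3.53 in double mutant peel, against 10.54 and 10.24 in atv mutant peel, a fall of at least 84-fold.

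The remaining members fell less or were not called. HSP17-6 was 10.53 and 10.51 in double mutant peel, against 13.62 and 13.57 in atv mutant peel, 8.41-fold lower, and ER21 fell by 10.8-fold. Hsp90-1, a large cytosolic chaperone, fell by 1.37-fold, a call lost in 10 of 19 alternatives. The chaperonin CPN21 had -0.25 ± 0.11 (SE, adjusted p = 0.12) and HSC80, a constitutive chaperone of the HSP90 family, 0.095 ± 0.089 (SE, adjusted p = 0.43). TFHS1 (LOC544187) had 0.15 ± 0.10 (SE, adjusted p = 0.29). ER24, which codes for the co-activator MBF1 and is a heat-responsive gene in Arabidopsis, was 8.18 and 8.32 in double mutant peel, against 12.76 and 12.77 in atv mutant peel, with 9.0 and 8.75 in Aft mutant peel, against 8.73 and 8.53 in wild type peel. It fell by 22.9-fold (-4.52 ± 0.13 SE, adjusted p = 2.6e-05) and its interaction was -4.77 ± 0.19 (SE, adjusted p = 0.0002). Calls that did not hold with 1 array left out were those of Hsp90-1 (either double mutant array or either atv mutant array or either wild type array, adjusted p = 0.0601 to 0.125). Hsp90-1 was not called with the values as deposited.

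Cold and drought genes mostly fell in the same comparison. Of 11 tested, 8 were lower and 3 higher, with a median of -0.71. All were thus called, against 50.9% of all genes with a symbol. With the values as deposited 7 were lower and 1 higher. Double mutant minus wild type had a median of 0.66, with 5 genes called higher and none lower. The median of atv mutant minus wild type was 0.81. CBF1, an AP2-type factor of the cold response, was 4.72 and 0.42 in double mutant peel, against 10.46 and 10.58 in atv mutant peel. It was 5.08 and 3.52 in Aft mutant peel, against 4.95 and 5.08 in wild type peel. The atv mutant arrays were the high ones, and the double mutant, in which one array was near the bottom of the scale, was at least 71.5-fold lower. The dehydrin gene TAS14 and the lipid transfer protein genes TSW12 and LE16 fell by 1.87-fold, 1.92-fold and 1.63-fold. DREB1 and DREB2, also AP2-type factors, fell by 1.92-fold and 2.05-fold, while DREB3 rose by 1.63-fold. TSI-1, a stress-induced gene, rose 7.95-fold, at 7.71 and 7.62 in double mutant peel and 4.76 and 4.59 in atv mutant peel. Its level was 5.14 and 5.39 in Aft mutant peel, against 6.79 and 6.31 in wild type peel, so that the Aft mutant did not share this rise. One left-out array was enough to lose the call of DREB1 (the first double mutant array, adjusted p = 0.0537). DREB3 was not called with the values as deposited.

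Photosynthesis genes of the green plastid were lower in the double mutant. Of 11 tested, 10 fell and none rose, with a median of -0.62. Their called share was 90.9%, against 50.9% of all genes with a symbol. The falls numbered 7 with the values as deposited and 5 with arrays centred on their medians. CAB5, a chlorophyll a/b-binding protein, was 10.86 and 10.70 in double mutant peel, against 13.93 and 13.72 in atv mutant peel. It was 10.65 and 10.30 in Aft mutant peel, against 11.25 and 11.22 in wild type peel. The atv mutant arrays were the high ones, and the fall was 8.27-fold (-3.05 ± 0.15 SE, adjusted p = 9.1e-05). CAB4 fell by 1.99-fold, the protochlorophyllide reductase gene POR2 by 2.24-fold, and plastocyanin PETE by 1.82-fold. The oxygen-evolving complex genes PsbQ, PSBP and PSBO fell by 1.39-fold, 1.34-fold and 1.28-fold, and PSBR had -0.17 and was not called. Leaving out 1 array ended the call of PSBO (either double mutant array or the first atv mutant array or either wild type array, adjusted p = 0.0535 to 0.114), PSBP (either double mutant array or the first atv mutant array, adjusted p = 0.0545 to 0.112) and PsbQ (the first double mutant array, adjusted p = 0.0523). PSBO, PSBP and PsbQ were not called with the values as deposited.

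The green plastid markers were themselves members of the photosynthesis list, so their sum is not a second observation. The 4 markers tested (CAB5, CAB4, POR2 and PETE) all fell, and their summed intensity was 19509.3 and 19300.7 in double mutant peel, against 50861.3 and 48239.8 in atv mutant peel. It was 19538 and 17816.8 in Aft mutant peel, against 21498.8 and 21802.6 in wild type peel. The part of the plastid content of the peel in the results on photosynthesis and carotenoid genes was not tested.

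Carotenoid genes fell too. Of 18 tested, 14 were lower and none higher, with a median of -1.01. Their called share was 77.8%, against 50.9% of all genes with a symbol. With the values as deposited 11 were lower, and with centred arrays 12 were lower and 1 higher. In turn, 3 were lower and none higher between Aft mutant and wild type peel, and 8 had a called interaction. Double mutant minus wild type had a median of -0.041, with 2 genes called higher and 2 lower. The median of atv mutant minus wild type was 0.86. At the entry, DXR of the plastid isoprenoid pathway fell by 2.09-fold. The phytoene synthase gene PSY2 was 10.21 and 10.45 in double mutant peel, against 11.90 and 12.20 in atv mutant peel, a fall of 3.3-fold. Psy1, the fruit phytoene synthase, had 3 probe sets, with 1 called (-1.13) and the others at -0.65 and -0.084. The desaturases PDS and ZDS fell by 1.88-fold and 1.99-fold. PDS was not called with the values as deposited.

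Xanthophyll steps fell as well. Violaxanthin de-epoxidase VDE was 8.52 and 8.59 in double mutant peel, against 10.86 and 11.18 in atv mutant peel, 5.52-fold lower, and neoxanthin synthase NSY was 4.70 and 5.09 in double mutant peel, against 7.08 and 7.44 in atv mutant peel, 5.14-fold lower. The beta-carotene hydroxylase CrtR-b1 was 9.65 and 9.81 in double mutant peel, against 11.87 and 11.88 in atv mutant peel, 4.41-fold lower. The 4 arrays of each of these genes split by genotype with no overlap, as they did at 72.5% of all probe sets tested. Lycopene cyclases LCY1 (beta) and CRTL-E-1 (epsilon) fell by 2.05-fold and 2.87-fold, and zeaxanthin epoxidase ZEP by 1.4-fold. The cleavage enzymes CCD1B and NCED1, of which NCED1 opens abscisic acid synthesis, fell by 3.02-fold and 1.62-fold. Plastid terminal oxidase PTOX had 0.44 ± 0.14 (SE, adjusted p = 0.051). With 1 array left out, calls were lost for NCED1 (either double mutant array or the first atv mutant array or either Aft mutant array or either wild type array, adjusted p = 0.0514 to 0.202) and ZEP (the first double mutant array or the second atv mutant array, adjusted p = 0.0574 to 0.115). NCED1 and ZEP were not called with the values as deposited.

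**Figure D4:**
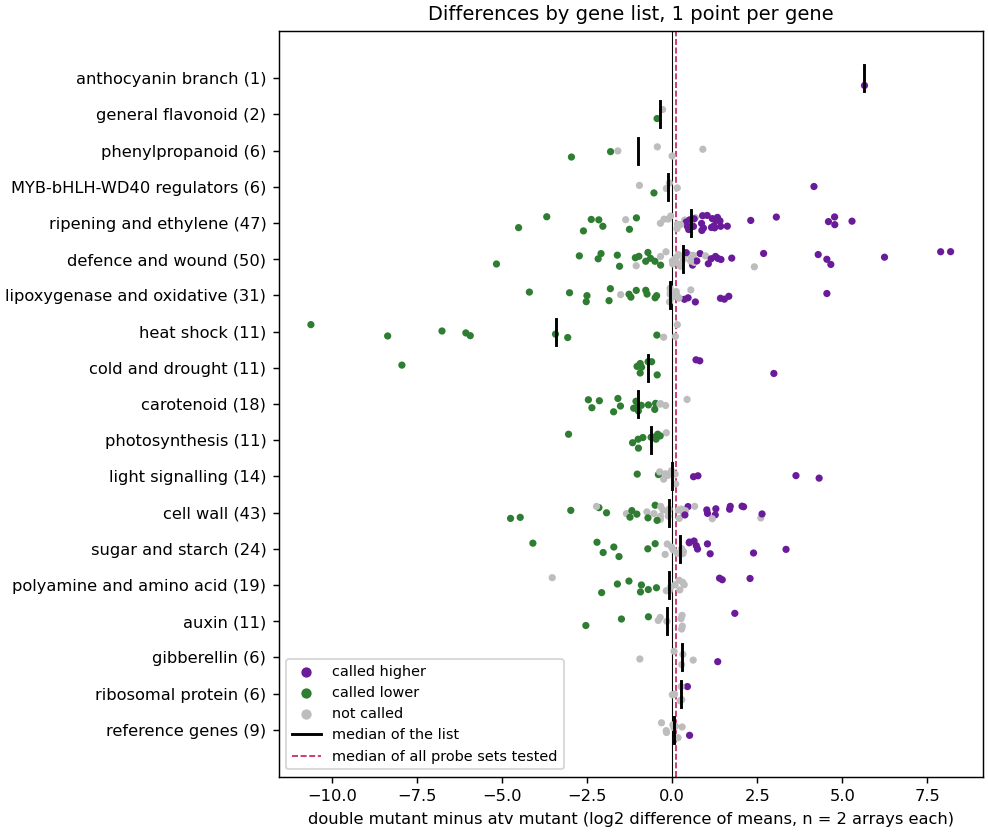
Log2 difference, double mutant minus atv mutant, of each member tested in each gene list (horizontal axis), with 1 probe set per gene. Called members are coloured by direction, bars mark list medians, and the dashed line marks the median of all probe sets tested. Heat shock, photosynthesis and carotenoid members lie at or below 0 with few exceptions, and ripening and ethylene members lie mainly above it.

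Cell wall genes had no common direction. Of 43 tested, 11 rose, 11 fell and 21 were not called, a called share of 51.2% that is close to the 50.9% of all genes with a symbol, with a median of -0.092; with the values as deposited 7 rose and 13 fell, and with centred arrays 14 rose and 11 fell. The xyloglucan endotransglucosylase genes, whose products cut and rejoin xyloglucan, moved both ways. tXET-B2 was 7.51 and 7.58 in double mutant peel, against 12.39 and 12.21 in atv mutant peel, 27-fold lower, and XTH3 was 6.81 and 6.78 in double mutant peel, against 11.40 and 11.13 in atv mutant peel, 22.2-fold lower. XTH9 (LOC543916) fell by 7.91-fold. XTH16 rose by 4.15-fold, with its largest difference at another probe set (3.14), XTH6 by 3.22-fold, XTH5 by 2.43-fold and XTH7 by 2.05-fold. tXET-B2 and XTH3 were low outside the atv mutant, at 7.81 and 7.19 in Aft mutant peel, against 6.44 and 6.13 in wild type peel for tXET-B2, and 6.66 and 6.67 in Aft mutant peel, against 6.24 and 5.65 in wild type peel for XTH3. XTH5 was not called with the values as deposited.

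The expansins EXPA6, EXP2, EXP12, exp18 and EXP1, which loosen walls, fell by 3.81-fold, 2.36-fold, 2.28-fold, 2.05-fold and 1.42-fold, EXPA4 rose by 1.38-fold, and EXPA10, EXPA3, EXP5, exp9 and exp11 were not called. A second EXPA6 probe set had -1.74 and was not called. The beta-galactosidases TBG7, TBG4 and TBG3 rose by 4.29-fold, 3.27-fold and 2.41-fold, TBG1 fell by 1.64-fold, and TBG2, TBG5 and TBG6 were not called. TLRP, a tyrosine- and lysine-rich wall protein, was 14.12 and 14.03 in double mutant peel, against 11.65 and 11.21 in atv mutant peel, 6.24-fold higher. It was 13.83 and 13.89 in Aft mutant peel, against 11.82 and 11.67 in wild type peel, so both genotypes with Aft lay above both without it, and its interaction of 0.53 ± 0.23 (SE, adjusted p = 0.16) was not called. Calls that did not hold with 1 array left out were those of EXP1 (the second double mutant array or the second atv mutant array, adjusted p = 0.0535 to 0.104), EXP12 (either atv mutant array, adjusted p = 0.0512 to 0.0526) and EXPA4 (either double mutant array or the first atv mutant array, adjusted p = 0.0546 to 0.0939). One left-out array was enough to lose the call of exp18 (the first double mutant array, adjusted p = 0.0647). EXPA4 was not called with the values as deposited.

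Sugar genes also moved both ways. Of 24 tested, 9 rose and 7 fell, with a median of 0.22. The called share was 66.7%, against 50.9% of all genes with a symbol. With the values as deposited 4 rose and 6 fell. HT1, a hexose transporter, was 11.59 and 11.57 in double mutant peel, against 8.44 and 8.03 in atv mutant peel, 10.2-fold higher. The cell wall invertase gene Wiv-1 and the acid invertase gene AI rose by 5.25-fold and 2.17-fold. The invertases LIN8 and lin5 fell by 17.1-fold and 4.09-fold, LIN8 being 6.21 and 5.12 in double mutant peel, against 9.84 and 9.69 in atv mutant peel. The invertase inhibitor CIF1 fell by 2.96-fold. AGPL3 and AGP-S2, subunits of the starch enzyme ADP-glucose pyrophosphorylase, fell by 4.63-fold and 1.64-fold. The sucrose transporters SUT2 and SUT4, which are also the called members of the vascular markers, rose by 1.68-fold and 1.42-fold. The sum of the 3 vascular markers tested was 1697.3 and 1662.5 in double mutant peel, against 1020.4 and 1061.2 in atv mutant peel. The part of vascular tissue in the sugar transporter results was not tested. TMT, counted in this list by its symbol, which can also stand for a tocopherol methyltransferase, fell by 3.29-fold. Leaving out 1 array ended the call of SUT4 (the second double mutant array, adjusted p = 0.0862). SUT2 and SUT4 were not called with the values as deposited.

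Of 31 genes of lipid oxidation and oxidative metabolism tested, 13 fell and 7 rose, with a median of -0.064. The called share was 64.5%, against 50.9% of all genes with a symbol. On the deposited scale 11 fell and 3 rose. AOX1a, the alternative oxidase of mitochondria, was 5.71 and 6.21 in double mutant peel, against 10.07 and 10.26 in atv mutant peel. It was 8.98 and 8.77 in Aft mutant peel, against 8.74 and 8.70 in wild type peel. The double mutant was thus the lowest genotype, 18.4-fold below the atv mutant. ODD, a 2-oxoglutarate-dependent dioxygenase, was 4.78 and 5.19 in double mutant peel, against 8.0 and 8.01 in atv mutant peel, with 10.13 and 10.23 in Aft mutant peel, against 9.25 and 9.22 in wild type peel; it fell by 8.11-fold, again to the lowest of the 4 levels. The fruit lipoxygenases LOXB, LOX1.1 and TomloxE fell by 5.68-fold, 5.77-fold and 2.41-fold, and loxC, which makes fatty acid volatiles, rose by 3.17-fold. CAT2, a catalase, and APX, an ascorbate peroxidase, fell by 3.62-fold and 1.71-fold. Wfi1, an NADPH oxidase, rose by 2.9-fold. The iron superoxide dismutase gene FESOD had 2 probe sets called in opposite directions, at 0.68 and -2.08. With 1 array left out, calls were lost for APX (the first double mutant array or the first atv mutant array or either Aft mutant array or either wild type array, adjusted p = 0.0669 to 0.188). FESOD was not called with the values as deposited.

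In nitrogen metabolism 3 of 19 genes rose and 7 fell, a called share of 52.6% that is close to the 50.9% of all genes with a symbol. Glutamate dehydrogenase gdh1 rose by 4.89-fold, and plastid glutamine synthetase GS2 fell by 4.21-fold. The GABA transaminase GABA-TP2 and the glutamate decarboxylase gad2, both of the GABA pathway, fell by 3.06-fold and 2.41-fold. Another glutamate decarboxylase gene, yfe37 (GAD3), rose by 2.63-fold, and GABA-TP1 and GABA-TP3 were not called. ADC, an arginine decarboxylase, fell by 1.87-fold, and the proline transporters split, with ProT3 rising by 2.77-fold and ProT2 falling by 1.91-fold. Outside the lists, the isocitrate lyase gene ICL (LOC544276) was 11.32 and 11.36 in double mutant peel, against 7.05 and 7.78 in atv mutant peel, 15.1-fold higher. The phosphate transporter gene PT1 was 10.02 and 9.89 in double mutant peel, against 6.94 and 6.94 in atv mutant peel, 8.1-fold higher. Chloroplast malate dehydrogenase chMDH was 6.75 and 6.58 in double mutant peel, against 11.18 and 11.46 in atv mutant peel, 25.2-fold lower. SNF4, a subunit of an energy-sensing kinase, fell by 8.72-fold. The haemoglobin gene GLB2 was at least 2.15-fold lower, pip1 at least 4.84-fold lower and psi14A at least 1.23-fold lower, all with double mutant means under log2 4. Calls that did not hold with 1 array left out were those of pip1 (either atv mutant array, adjusted p = 0.0645 to 0.0693) and psi14A (either atv mutant array or either wild type array, adjusted p = 0.0501 to 0.0939).

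Hormone and light genes were fewer, and their called shares were below the 50.9% of all genes with a symbol. The share was 36.4% for auxin, 16.7% for gibberellin and 42.9% for light signalling genes. Of 11 auxin genes 1 rose (ARPI, 3.58-fold) and 3 fell. These were IAA3, an Aux/IAA repressor (5.81-fold), RSI-1 (2.81-fold) and the auxin-binding protein gene ERABP1 (1.62-fold). Of 6 gibberellin genes, GAI, the DELLA repressor of growth, rose by 2.53-fold and 5 were not called. In light signalling 4 of 14 rose and 2 fell. LePCL1, which belongs to a family with clock functions in Arabidopsis, was 9.40 and 9.44 in double mutant peel, against 4.78 and 5.42 in atv mutant peel, a difference of 4.32, and TCP3, a TCP-type factor, was 9.81 and 9.83 in double mutant peel, against 6.68 and 5.68 in atv mutant peel, 12.5-fold higher. The ubiquitin ligase COP1 and the cryptochrome CRY2 rose by 1.55-fold and 1.69-fold. HY5, the bZIP factor that COP1 degrades, fell by 1.33-fold, and AUREA, of phytochrome chromophore synthesis, by 2.04-fold. One left-out array was enough to lose the call of AUREA (the second double mutant array or either atv mutant array, adjusted p = 0.076 to 0.147), COP1 (the second double mutant array, adjusted p = 0.0543) and ERABP1 (either double mutant array, adjusted p = 0.0677 to 0.0688). Leaving out 1 array ended the call of HY5 (either double mutant array or the first atv mutant array or either wild type array, adjusted p = 0.0533 to 0.151). AUREA, COP1, CRY2 and HY5 were not called with the values as deposited.

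Genes chosen as references moved little. Of 9 tested, 1 was called (TUB, a tubulin, 1.42-fold higher), with a median of 0.051. Among 6 ribosomal protein genes RPL37 rose by 1.36-fold, and the histone gene H1 had 0.32 ± 0.13 (SE, adjusted p = 0.088). In the cuticle and epidermis markers TSW12 and LE16 fell and ltpg1 had 0.17. Their summed intensity was 27973.3 and 27580 in double mutant peel, against 32107.7 and 31787.2 in atv mutant peel. The trichome marker MTS1 was 4.01 and 0.95 in double mutant peel, against 2.16 and 3.96 in atv mutant peel and was not called. The seed marker MAN2 failed the filter, with a highest log2 intensity of 3.70. With 1 array left out, calls were lost for RPL37 (either double mutant array, adjusted p = 0.0581 to 0.0872). RPL37 and TUB were not called with the values as deposited.

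The patterns most like DFR over the 8 arrays were those of bZIP1 (Pearson r = 0.960), the phosphate starvation gene TPSI1 (0.937) and XOPG1 (0.886). They were followed by XTH1 (0.874), LTC (0.873), LePK5 (0.872), PTI5 (0.870), UREF (0.859), MAPK10 (0.857) and PGcat (0.852). These coefficients describe 8 arrays from 4 genotypes, and DFR was near the bottom of the scale on the wild type arrays. The genes were picked by likeness to DFR on the same arrays, so their differences below are not a separate test. bZIP1 was 13.12 and 13.15 in double mutant peel, against 11.94 and 12.43 in atv mutant peel, with 13.01 and 12.94 in Aft mutant peel, against 11.50 and 11.74 in wild type peel. Its difference between double mutant and atv mutant was 0.95 ± 0.18 (SE, adjusted p = 0.0089). TPSI1 was 10.62 and 10.32 in double mutant peel, against 9.81 and 9.49 in atv mutant peel, with a difference of 0.82 ± 0.16 (SE, adjusted p = 0.01). XOPG1 had 1.43 ± 0.18 (SE, adjusted p = 0.002). Of the other 7, PGcat and LePK5 were called (1.02 and 0.45), and XTH1, LTC, PTI5, UREF and MAPK10 were not. Calls that did not hold with 1 array left out were those of LePK5 (the first double mutant array or the first atv mutant array or either Aft mutant array or either wild type array, adjusted p = 0.0645 to 0.189) and TPSI1 (the first double mutant array, adjusted p = 0.0544). PGcat and TPSI1 were not called with the values as deposited.

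The change that went with Aft was set against the same change in the wild type background, Aft mutant minus wild type, which shares no array with it. Both came from the same fit, with the same estimate of spread for each probe set, so their calls are not independent. For Aft mutant minus wild type 530 probe sets were called, and 431 were called in both comparisons. These were 10.3% of the calls between double mutant and atv mutant and 81.3% of those for Aft mutant minus wild type. Of all probe sets tested, 44% were called between double mutant and atv mutant. Among the 431, 144 were higher in both, 167 lower in both and 120 went opposite ways. Over all 9493 probe sets the differences had a Pearson r of 0.257 (Spearman rho 0.2325), a description across probe sets that are not independent. The interaction was called for 2293 probe sets, 24.2% of those tested, and for 872 with the values as deposited. With 1 double mutant or wild type array left out the interaction count was 1157 to 1455.

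Named genes fell into different places on this map. DFR rose in both backgrounds, by 5.64 with atv and 8.65 without it (log2), and its interaction of -3.01 ± 1.12 (SE, adjusted p = 0.11) was not called; the wild type arrays were near the bottom of the scale. sbt4a rose in both (4.67 and 3.84), as did AGL11 and TLRP. CEVI57 fell in both (-5.17 and -3.95), as did LOXB (-2.51 and -2.48), lin5 (-2.03 and -3.43) and ACO6 (-3.69 and -3.57). RIN went opposite ways, higher with atv and -3.49 (adjusted p = 0.0039) without it. NP24-I, ER1 and the small heat shock genes had large differences in the atv background and uncalled differences of -0.29, -0.22 and, for HSP17.4 and MTSHP, 0.99 and 0.12 in the wild type background. For these 4 genes the interaction itself was called.

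**Figure D5:**
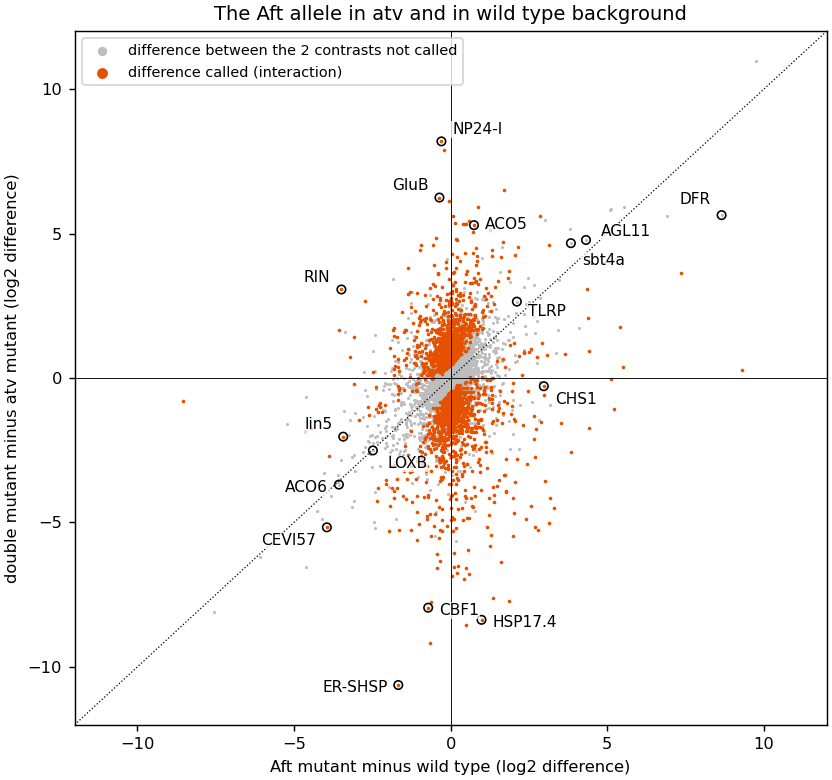
Log2 difference that went with Aft in the atv background (double mutant minus atv mutant, vertical axis) against that in the wild type background (Aft mutant minus wild type, horizontal axis) for each probe set tested, with called interactions coloured. DFR, sbt4a and TLRP are high on both axes, LOXB, lin5 and CEVI57 low on both, and NP24-I, GluB, CBF1 and HSP17.4 lie near 0 on the horizontal axis and far from it on the vertical one.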

How the data were processed

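RNA from mature green fruit peel was hybridised to 8 Affymetrix Tomato Genome Arrays, 2 biological replicates for each of 4 genotypes. The deposited values are linear intensities per probe set; the submitters' processing notes name GCRMA, with no version, and no source used here gives the scale they were set to. From these, intensities were quantile-normalized over the 8 arrays, then floored at 1 and taken to log2. Of 10209 probe sets, 171 controls were left out, and 545 of the rest failed the filter (log2 of 4 or more on at least 2 arrays). A model with 1 mean per genotype was fitted by limma (version 3.58.1, R version 4.3.3) over the 8 arrays together (lmFit, eBayes, two-sided, 4 residual degrees of freedom), and p-values were adjusted by Benjamini-Hochberg over 9493 probe sets, with a threshold of 0.05. Differences are double mutant minus atv mutant. Where a group mean was under log2 4, the fold is a bound from intensities floored at 16. Symbols came from the platform annotation (849 probe sets tested, 754 genes), and the probe set with the highest mean stood for its gene.

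Genes were named by rule: all tested genes of the flavonoid, phenylpropanoid and regulator lists, the 20 largest rises and falls among called genes, up to 6 called and 2 uncalled genes of each other list, and the 10 most like DFR. Further members of lists and families, and PG2, MAN2 and ANT1, were named after their values were seen. The lists and the genotypes compared were chosen with earlier results of these data known. The fit was tested on simulated data. Alternatives covered scaling, floor, filter, the arrays fitted, a replicate block and leaving out each array. The planned promoter description was not run, and no sequences were used here. Limma's intervals cover the spread between arrays, and the number of arrays limits the precision.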

Additional observations from a re-analysis of the deposited data

Results flagged for a closer look

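The change that went with Aft was compared between the atv and the wild type background by limma's interaction term, (double mutant minus atv mutant) minus (Aft mutant minus wild type), on the log2 scale. Of the 54 probe sets of genes named for the flavonoid lists or for the size of their difference, 34 had a called interaction. Among all probe sets tested the share was 24.2%. Genes picked for a large double mutant minus atv mutant difference carry that difference in the interaction. Their high share is therefore not a separate test. Several of the interaction values, ER-SHSP, CBF1, vis1, THT7-8, GLB2 and RIN among them, rest on readings under log2 4. XTH16 is given for the probe set with its largest difference.

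Interaction was negative for the heat and cold genes HSP17.4 (-9.35), ER-SHSP (-8.96), vis1 (-7.37), CBF1 (-7.23), HSP21 (-6.51), MTSHP (-6.19), ER24 (-4.77), HSP17-6 (-3.17) and ER21 (-3.11). It was negative as well for the wall genes tXET-B2 (-5.97) and XTH3 (-5.19). Among metabolic genes it was negative for GLB2 (-5.43), AOX1a (-4.36), LIN8 (-4.10), chMDH (-3.57), THT7-8 (-3.47), CHS1 (-3.26) and SNF4 (-3.02), and for the viroid-induced gene CEVI57 it was -1.22.

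Positive interactions were found for the defence and stress genes NP24-I (8.48), ER1 (8.11), GluB (6.60), TSI-1 (4.27) and CHI9 (4.26). Ethylene and ripening genes with a positive value were RIN (6.55), ETR6 (5.16), ERF4 (4.59) and ACO5 (4.54). Transport, metabolic, wall and regulatory genes followed, with ICL (LOC544276) at 4.46, LePCL1 at 3.85, TCP3 at 3.58, PT1 at 2.96, HT1 at 2.53 and XTH16 at 1.71.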

How the results depend on the processing

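The count of probe sets called between double mutant and atv mutant was 4178 and lay within 1.5 times of that under quantile normalization over 4 arrays (4157), median-centred arrays (3806), a floor of 16 (4333), no filter (4016), a filter at log2 6 (4232), a fit on the 4 arrays (2949) and a trended, robust fit (4518). It was 2252 with the values as deposited, and 2552 to 4223 without 1 replicate, the lowest without the second double mutant array. The interaction count of 2293 was 872 with the values as deposited and 1157 to 2579 without 1 replicate, with 1455 and 1298 without the first and second double mutant array and 1157 and 1182 without the first and second wild type array. Leaving out both wild type arrays gave 3471 calls, and both Aft mutant arrays 4090, alternatives chosen after seeing the data.

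Equal replicate numbers did not pair the samples. Deviations of same-numbered arrays correlated at 0.17 between double mutant and atv mutant, at 0.18 between atv mutant and wild type, and at -0.035 to 0.016 for the other pairs. With the replicate number as a block 4111 probe sets were called, and 2170 for the interaction, and 4 of the 207 called probe sets of named genes and list members lost their call.

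Of these 207 probe sets, 131 were called in every alternative that tested them (19 at most) and 76 were lost in at least 1, 54 of them with the values as deposited. One called gene changed sign, LePK5 (-0.030 as deposited). Uncalled genes that changed sign were hqt (0.12 with centred arrays, 0.070 without the second atv mutant array, otherwise down to -0.076 without 1 replicate), LeMYBI (-0.28 as deposited, -0.011 with centred arrays, -0.23 without the second double mutant array, -0.0082 without the second atv mutant array, up to 0.53 without 1 replicate), MTS1 (0.0039 with a floor of 16, 0.95 without the second double mutant array, 0.32 without the second atv mutant array, down to -2.11 without 1 replicate), THM27 (0.13 without the second double mutant array, 0.40 without the first atv mutant array, down to -0.57 without 1 replicate), TPRP-F1 (-0.14 as deposited) and UREF (-0.19 as deposited). The cause was not tested. With 2 arrays per genotype the number of arrays limits the precision, and for genes under log2 4 in a group the folds are bounds and the printed log2 differences, which are not floored, are not.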

Other observations

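Probe sets without a gene symbol made up 8644 of the 9493 tested, and 2135 of them were higher and 1627 lower in double mutant than in atv mutant peel. Among those with both group means above log2 4, the largest rise was at 13.36 and 13.29 in double mutant peel, against 8.25 and 6.16 in atv mutant peel. That probe set was at 13.71 and 13.61 in Aft mutant peel, against 13.70 and 13.73 in wild type peel, so only the atv mutant arrays were low. The second largest rise was at 10.43 and 9.71 in double mutant peel, against 4.53 and 4.38 in atv mutant peel. It was at 10.98 and 11.33 in Aft mutant peel, against 3.66 and 4.85 in wild type peel, so both genotypes with Aft were high. The unnamed probe set with the largest fall was at 4.76 and 3.63 in double mutant peel, against 12.45 and 12.13 in atv mutant peel. It was at 4.16 and 3.85 in Aft mutant peel, against 11.60 and 11.54 in wild type peel, so that it was low in both genotypes with Aft. The next largest fall was at 6.26 and 6.43 in double mutant peel, against 13.30 and 13.33 in atv mutant peel. At 11.23 and 11.11 in Aft mutant peel, against 10.73 and 10.78 in wild type peel, that probe set was not low in the Aft mutant. These probe sets were picked after their values were seen.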
